A study of Arabidopsis thaliana with 12 samples.

Results

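*CHLP*, *CHLM* and *Z-ISO* encode 3 plastid enzymes of pigment synthesis in *Arabidopsis thaliana*. They were picked by name and locus (AT1G74470, AT4G25080 and AT1G10830) from the 692 probes of the array whose annotation names 1 gene, out of 3437 probes with values. Each has 1 such probe. The genes were chosen with their stn8 and WT intensities already known, and the choice was selected on that contrast, including a group listed at 0. Their difference between the groups is therefore described here and not tested.

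Total RNA was hybridised to 12 expression arrays, 6 of the stn8 mutant and 6 of the WT, ecotype Columbia 0. The titles alone give the genotype and a number from 1 to 6, and the source field gives the WT for all 12 samples. The allele, the tissue, the age of the plants, the light regime and the treatment are not stated in the sources used here, and no treatment other than the genotype is named for either group. No label ties the numbered samples to separate plants. The p-values thus cover only the variation among these arrays, which may be technical.

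STN8, the gene after which the mutant is named, encodes a thylakoid kinase that acts on photosystem II core proteins. Chlorophyll is built in the plastid from glutamate through a shared tetrapyrrole route. After magnesium is inserted, CHLM, a methyltransferase, adds a methyl group to magnesium protoporphyrin, an early step of the chlorophyll branch. CHLP, geranylgeranyl reductase, makes the phytyl chain that anchors chlorophyll in the membrane and that also enters tocopherol and phylloquinone. Z-ISO, an isomerase, acts on zeta-carotene between the desaturation steps that lead to lycopene. The carotenoids made from lycopene protect the photosystems from excess light.

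The 3 genes followed 3 different courses. *CHLP* was lower in stn8, at 0.444 of its WT intensity on the means of the deposited values. *CHLM* lay at nearly the same intensity in both genotypes. *Z-ISO* was dim in the WT and listed at 0 on every stn8 array. Intensities are on the linear scale of the deposited table, whose unit is not given, and each is compared only with the same probe on other arrays.

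**Figure D1:**
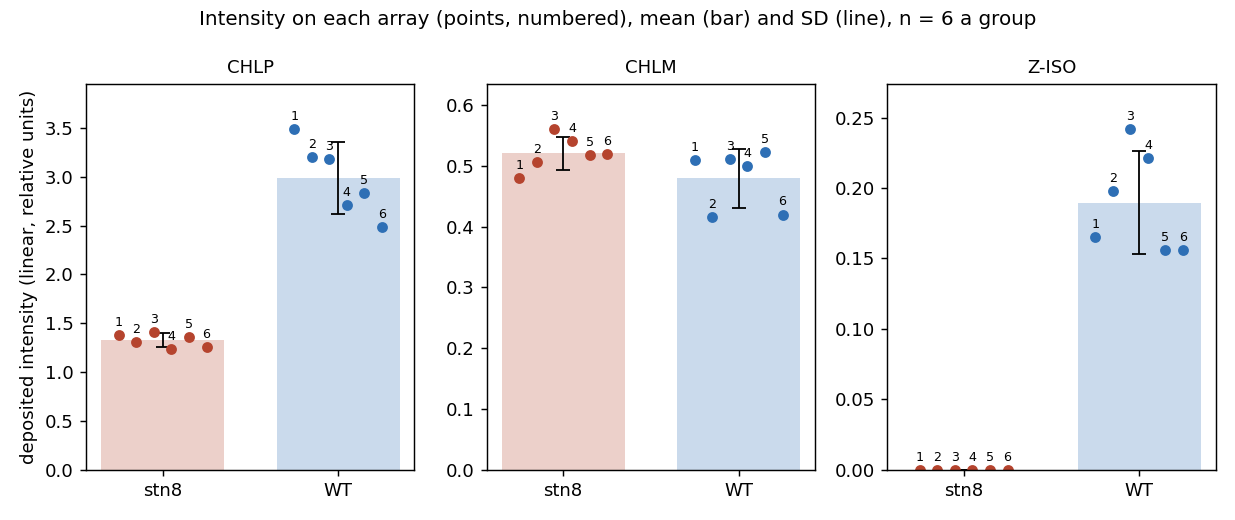
Deposited intensity of *CHLP*, *CHLM* and *Z-ISO* (linear axes from 0, each with its own range) on the 6 stn8 and the 6 WT arrays. Points are arrays with their numbers, bars are means and lines are SDs. The *CHLP* values do not overlap, the *CHLM* values do, and all 6 stn8 values of *Z-ISO* are 0.

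*CHLP* had a lowest intensity of 1.23, a median of 1.33 and a highest of 1.42 in stn8, against 2.49, 3.01 and 3.49 in the WT. The highest stn8 array lay below the lowest WT array, so the groups did not overlap. The means were 1.33 ± 0.0719 in stn8 and 2.98 ± 0.370 in the WT (SD, n = 6 each). The coefficient of variation was 5.42% in stn8 and 12.4% in the WT. Arrays 1 and 2 of stn8 differed by 0.0745, arrays 3 and 4 by 0.182 and arrays 5 and 6 by 0.102. In the WT these differences were 0.288, 0.474 and 0.344.

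By these means *CHLP* was 2.25-fold lower in stn8. The fit over all probes, made on quantile-normalized log2 values with limma, gave a log2 fold change of -1.44 ± 0.10 (SE) for stn8 over WT. Without normalization between arrays it was -1.16, the smallest size among the settings tried, and median centring gave -1.21. Of the 3437 probes, 12.3% had a fitted change as low as this or lower. By its rank among the probes of an array, *CHLP* stood between places 437 and 524 from the brightest on stn8 arrays and between places 138 and 207 on WT arrays. The rank does not depend on the scale of an array, and its ranges did not overlap either. In bulk RNA, fewer cells of a type and less RNA per cell cannot be told apart.

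*CHLM* had a lowest intensity of 0.481, a median of 0.519 and a highest of 0.561 in stn8, against 0.416, 0.505 and 0.523 in the WT. The groups overlapped: 4 stn8 arrays lay within the WT range and 2 above the brightest WT array, and WT arrays 2 and 6 lay below the dimmest stn8 array. The means were 0.521 ± 0.0275 in stn8 and 0.480 ± 0.0486 in the WT (SD, n = 6 each).

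The fitted log2 fold change of *CHLM* was -0.01 ± 0.07 (SE), with a 95% interval from -0.16 to 0.13. Its sign depended on the scaling: it was 0.12 without normalization, 0.07 with median centring and -0.06 with cyclic loess. The interval is on the normalized scale and covers only the variation among these arrays, which may be technical. It does not show that the levels were equal. Of all probes, 4.01% had a smaller fitted change in size, and the median size over all probes was 0.78. The rank of *CHLM* ran from 1158 to 1283 on stn8 arrays and from 1025 to 1383 on WT arrays, so the stn8 ranks lay within the WT ones.

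*Z-ISO* was listed at 0 on 6 of 6 stn8 arrays. In the WT it had a lowest intensity of 0.156, a median of 0.182 and a highest of 0.242, with a mean of 0.190 ± 0.0366 (SD, n = 6). The groups did not overlap, and no fold is given because a group is at 0. WT arrays 5 and 6 were the lowest of their group, both at 0.156, and arrays 3 and 4 were the highest, with a pair mean of 0.232. *Z-ISO* was dim also in the WT, where its rank lay between 2297 and 2573 and 864 to 1140 probes were dimmer.

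The stn8 arrays did hold values as dim as that of *Z-ISO* in the WT: between 630 and 694 probes per stn8 array lay above 0 and below 0.156. At 0 were 220 to 254 probes on a stn8 array and 173 to 190 on a WT array. The labels do not say how a value came to be 0. Of all probes, 25 (0.727%) were at 0 on all stn8 arrays and above 0 on all WT arrays, *Z-ISO* among them. The opposite pattern, 0 on all WT arrays and above 0 on all stn8 arrays, was found for 6 probes.

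Bright spots were numbered close to *Z-ISO*. The probe 1 number above it had 51.9 ± 5.66 in stn8 and 10.6 ± 2.71 in the WT (SD, n = 6 each). The probe 4 numbers above it had 8.91 ± 0.361 in stn8 and 2.74 ± 0.365 in the WT. The probe 1 number below *Z-ISO* was at 0 on 4 of 6 stn8 arrays and had 0.416 ± 0.0690 in the WT. The probe 3 numbers below it was at 0 on all 6 stn8 arrays, against 0.121 ± 0.0238 in the WT.

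Over the whole array, probes of the *Z-ISO* kind lay mostly near bright stn8 spots. A spot was counted as bright above a mean intensity of 10, which held for 60 probes in stn8, and as near within 4 spot numbers. Of 328 probes near a bright stn8 spot, 21 (6.40%) were at 0 on all stn8 arrays and above 0 on all WT arrays. Of the 3109 other probes, 4 (0.129%) were. The limits were chosen with earlier results of these data known. *Z-ISO* itself and the probe 3 numbers below it are among the 21. The shares are thus a description and not a test.

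By distance to the closest bright stn8 spot, the share was 13.3% of 90 probes at 1 spot number, 3.80% of 79 at 2, and 3.77% of 159 at 3 to 4. None of 309 probes at 5 to 8 showed the pattern, and 0.143% of 2800 probes farther away did. For the opposite pattern beside spots bright in the WT, the share was 5.36% of 56 probes at 1 spot number and 0.0333% of 3000 probes at 9 or more. In the WT the neighbour of *Z-ISO* stood at 10.6, and *Z-ISO* was above 0 there on all 6 arrays. The part of the bright neighbour in the zeros of *Z-ISO* was not tested. How spot numbers map to positions on the array is not stated in the sources used here.

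**Figure D2:**
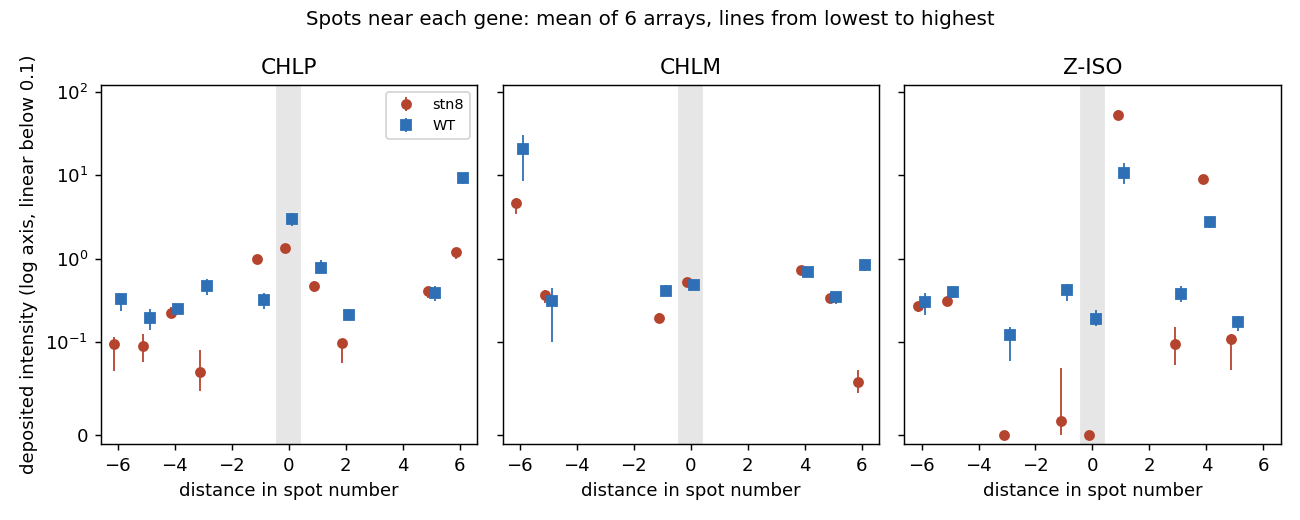
Deposited intensity (logarithmic axis, linear below 0.1) of the spots with values within 6 spot numbers of *CHLP*, *CHLM* and *Z-ISO*, each shaded at distance 0, in stn8 and WT. Points are means of 6 arrays and lines run from the lowest to the highest array. Beside *Z-ISO* a spot stands at 51.9 in stn8 and 10.6 in the WT, and 2 spots below it are at or close to 0 in stn8.

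Within 4 numbers, 5 spots beside *CHLP* and 2 beside *CHLM* had values, and none of them was that bright in either genotype. The other spot numbers there had no value, so their brightness is not known. Near *CHLP* the highest stn8 mean was 0.980, at the spot 1 number below, which had 0.324 in the WT. The highest WT mean was 0.780, at the spot 1 number above, which had 0.470 in stn8. The spots 3 below, 2 above and 4 below had 0.0682, 0.099 and 0.225 in stn8, against 0.467, 0.212 and 0.253 in the WT. A spot 6 numbers above *CHLP* had 1.20 ± 0.122 in stn8 and 9.35 ± 1.01 in the WT. Near *CHLM* the 2 spots with values within 4 numbers averaged 0.196 and 0.740 in stn8, against 0.407 and 0.691 in the WT. A spot 6 numbers below *CHLM* had 4.63 ± 0.673 in stn8 and 20.4 ± 9.37 in the WT, above the limit for a bright spot in the WT.

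These values stand against a contrast in which most of the array differed. In the limma fit 70.4% of the 3437 probes passed an adjusted p of 0.05 (Benjamini-Hochberg over all probes), 35.8% lower and 34.7% higher in stn8. Of the 3 genes 2 were called, *CHLP* and *Z-ISO*, both lower. The call of *Z-ISO* rests on its stn8 zeros being replaced by the lowest positive intensity of each array, so it is no measure of a difference. The deposited values of the groups did not overlap for 55.6% of all probes and for 2 of the 3 genes. Nothing is read from these counts, since the genes were chosen on this contrast.

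Arrays of a group were close to each other, with Pearson's r of 0.972 to 0.986 within stn8, 0.905 to 0.969 within the WT and 0.676 to 0.725 between the genotypes, over the 3079 probes above 0 on all arrays. By median intensity the WT arrays lay in pairs of neighbouring numbers. The medians were 0.326 and 0.328 on arrays 1 and 2, 0.369 and 0.368 on arrays 3 and 4, and 0.297 and 0.301 on arrays 5 and 6. Only arrays 5 and 6 were left out as a pair. Without WT arrays 5 and 6 *CHLP* had a log2 fold change of -1.54 and *CHLM* one of 0.04. *STN8* and *STN7* had no probe naming them alone, so the genotype was not checked by the level of its gene. Of the markers listed for green tissue, 1 of 10 had its own probe, *LHCB1.5*, whose product binds chlorophyll in the photosystem II antenna. It averaged 1.41 ± 0.0839 in stn8 and 8.80 ± 0.838 in the WT (SD, n = 6 each; limma adjusted p = 1.33e-11), lower like *CHLP*. Whether its probe separates the near-identical *LHCB1* copies is not stated. None of the 9 seed, 8 root and 7 flower and pollen markers had a probe of its own. The part of tissue makeup in the values of *CHLP* was not tested.

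Most of the pathway could not be read from the array. Of 135 genes on 6 lists, 6 had a probe of their own: 4 of 44 genes of chlorophyll and tetrapyrrole synthesis, 1 of 27 of carotenoid synthesis and cleavage, 1 of 17 of tocopherol, phylloquinone and plastoquinone synthesis, and none of the 10 for chlorophyll breakdown, the 18 for plastid isoprenoid precursors or the 19 light and greening regulators. Another 6 probes hold a listed gene together with other genes and are not named here. Beside *CHLP*, *CHLM* and *Z-ISO* this leaves 3 genes, of which 1 rose, none fell and 2 did not pass, beside 70.4% of all probes called (34.7% higher and 35.8% lower). Their log2 fold changes did not share a direction: 1.003 for AT5G63290, -0.22 for *HEMA3* and -0.77 for AT1G78620. Their median is thus the value of *HEMA3* alone, beside a median of 0 over all probes after normalization.

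AT5G63290, on the tetrapyrrole list and without a functional name in the gene table used, rose in stn8. It had a lowest intensity of 2.92, a median of 3.43 and a highest of 3.84 in stn8, against 1.20, 1.32 and 1.62 in the WT, and the groups did not overlap. Its means were 3.43 ± 0.314 in stn8 and 1.39 ± 0.176 in the WT (SD, n = 6 each), a ratio of 2.46. The log2 fold change was 1.003 ± 0.088 (SE, limma adjusted p = 1.1e-06), and it ran from 0.93 to 1.30 over all settings tried. With arrays of neighbouring numbers averaged, the limma adjusted p was 0.00207. AT5G63290 thus went the other way from *CHLP*, which is on the same list. The probe 1 number above AT5G63290 was also brighter in stn8, with 2.10 ± 0.210 in stn8 and 0.548 ± 0.0651 in the WT.

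*HEMA3* encodes a glutamyl-tRNA reductase, an enzyme of the first committed step of tetrapyrrole synthesis. It had a lowest intensity of 0.851, a median of 1.14 and a highest of 1.36 in stn8, against 0.524, 1.38 and 1.54 in the WT. The groups overlapped, and the WT fell into separate parts: arrays 1 to 4 lay between 1.27 and 1.54, and arrays 5 and 6 at 0.524 and 0.554. The log2 fold change was -0.22 ± 0.30 (SE, limma adjusted p = 0.551, 95% interval from -0.88 to 0.45). Without WT arrays 5 and 6 it was -0.67 (adjusted p = 0.00204), so whether *HEMA3* passed depended on these 2 arrays. They were left out after the data were seen, and dropping the lowest WT values lowers the fold change by construction. That p-value is thus not a test of a difference. Without normalization the log2 fold change was 0.05.

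AT1G78620, on the tocopherol list and likewise without a functional name in the gene table, had a lowest intensity of 0.290, a median of 0.358 and a highest of 0.396 in stn8, against 0.255, 0.623 and 1.42 in the WT. The stn8 arrays lay close together, and the WT arrays spread over more than the whole stn8 range. The coefficient of variation was 10.1% in stn8 and 64.7% in the WT, where arrays 5 and 6 had 0.272 and 0.255 and array 2 had 1.42. The log2 fold change was -0.77 ± 0.37 (SE, limma adjusted p = 0.0857). It was -1.29 without WT arrays 5 and 6 (adjusted p = 0.00141). This pair was left out after its low values were seen, so that p-value is not a test of a difference. With single WT arrays left out, the log2 fold change was -0.97 without array 5 (adjusted p = 0.0327) and -0.99 without array 6 (adjusted p = 0.0245). Without array 2 it was -0.49 (adjusted p = 0.148).

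The lower values on WT arrays 5 and 6 were shared with neighbouring spots. This was counted on deposited intensities without correction for the scale of an array. The medians of WT arrays 5 and 6 were 0.297 and 0.301, against 0.326 to 0.369 on the other WT arrays. No other pair of arrays was looked at in this way. Over the whole array, WT arrays 5 and 6 both lay below all of WT arrays 1 to 4 for 32.2% of probes. Within 4 spot numbers this held for 4 of 4 spots beside *HEMA3* and 4 of 6 beside AT1G78620. It held for 3 of 7 beside AT5G63290, 2 of 5 beside *CHLP* and 0 of 2 beside *CHLM*. *Z-ISO* was itself lowest on these arrays in deposited intensity, but 0 of its 5 neighbouring spots were. After normalization *Z-ISO* was lowest on WT array 1, at a log2 value of -2.644, against -2.615 on array 5 and -2.624 on array 6. The part of WT arrays 5 and 6 in the values of *HEMA3* and AT1G78620 beyond the fits without them was not tested.

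**Figure D3:**
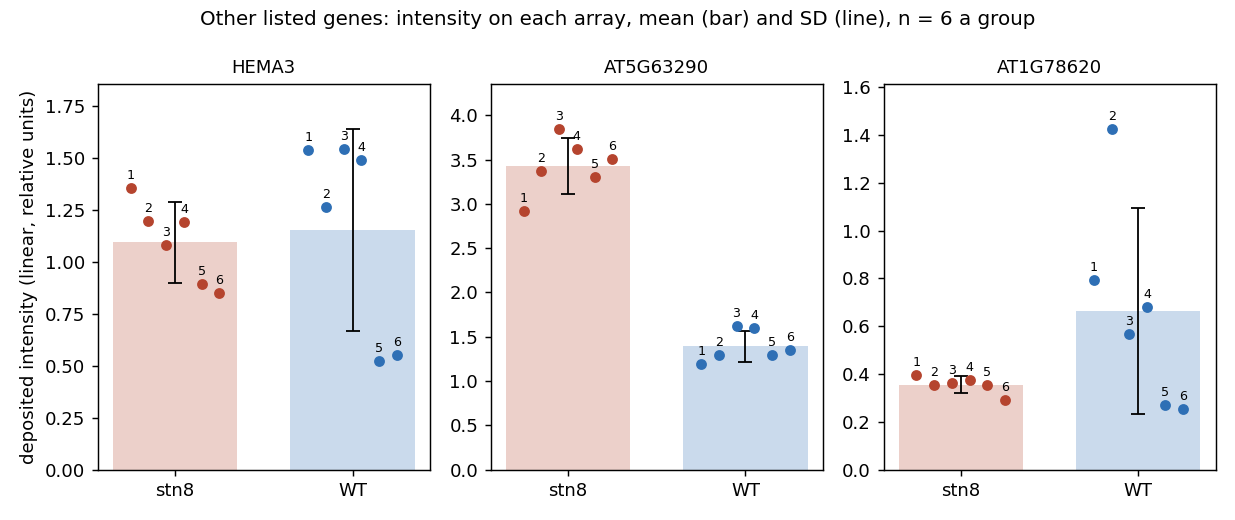
Deposited intensity (linear axes from 0, each with its own range) of the 3 other listed genes with a probe of their own on 6 stn8 and 6 WT arrays, points numbered by array, bars at the mean and lines for the SD. AT5G63290 is higher on all stn8 arrays, and WT arrays 5 and 6 lie apart for *HEMA3* and AT1G78620.

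The genes whose values went most closely with each enzyme from array to array were taken from the probes naming 1 gene. Group means were removed from the normalized log2 values first, so that the difference between genotypes does not enter. The likeness is Pearson's r and is given as a description, since arrays with neighbouring numbers resemble each other and the genes named are the highest of all those compared.

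For *CHLP*, over 12 arrays and 615 genes, these were AT1G24310 (r = 0.890), AT4G02800 (0.858), AT1G79220 (0.827), AT2G25870 (0.825) and AT2G39360 (0.818). In the comparison of genotypes they did not share a direction: AT1G24310, AT1G79220 and AT2G25870 were called lower in stn8 by limma, AT4G02800 was called higher (log2 fold change 1.79 ± 0.44, SE), and AT2G39360 was not called (adjusted p = 0.398). The other genes of the pathway lists above 0 on all arrays were less close to *CHLP*. Their r was 0.685 for AT1G78620, 0.663 for *HEMA3*, 0.01 for *CHLM* and -0.34 for AT5G63290.

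For *CHLM*, over the same 12 arrays and 615 genes, they were *AGL54*, which encodes a MADS-box protein (r = 0.892), AT4G21820 (0.774), *IQD22* (0.748), AT5G53930 (0.741) and AT2G25830 (0.723). *AGL54*, like *CHLM*, was nearly level between the genotypes in the fit, with a log2 fold change of -0.02 ± 0.14 (SE). Its mean intensity was 0.0904 in stn8 and 0.125 in the WT. AT4G21820, *IQD22* and AT2G25830 were called higher in stn8. AT5G53930 had a log2 fold change of -1.03 ± 0.79 and was not called (adjusted p = 0.27).

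For *Z-ISO* only the 6 WT arrays could be used, with 638 genes, and they were AT1G24360 (r = 0.946), AT2G47680 (0.934), AT5G49120 (0.886), AT3G56500 (0.876) and AT5G33390 (0.871). Their stn8 means lay between 0.0699 and 0.630, where *Z-ISO* was at 0. Of these 5, AT5G49120 was called lower and AT5G33390 higher in stn8.

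The size of the fitted differences under each way of processing is plotted for the 5 genes that allow one. *CHLP* stayed below 0 and AT5G63290 above 0 under all 23 alternatives, and *CHLM* was above 0 in 7 of them.

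**Figure D4:**
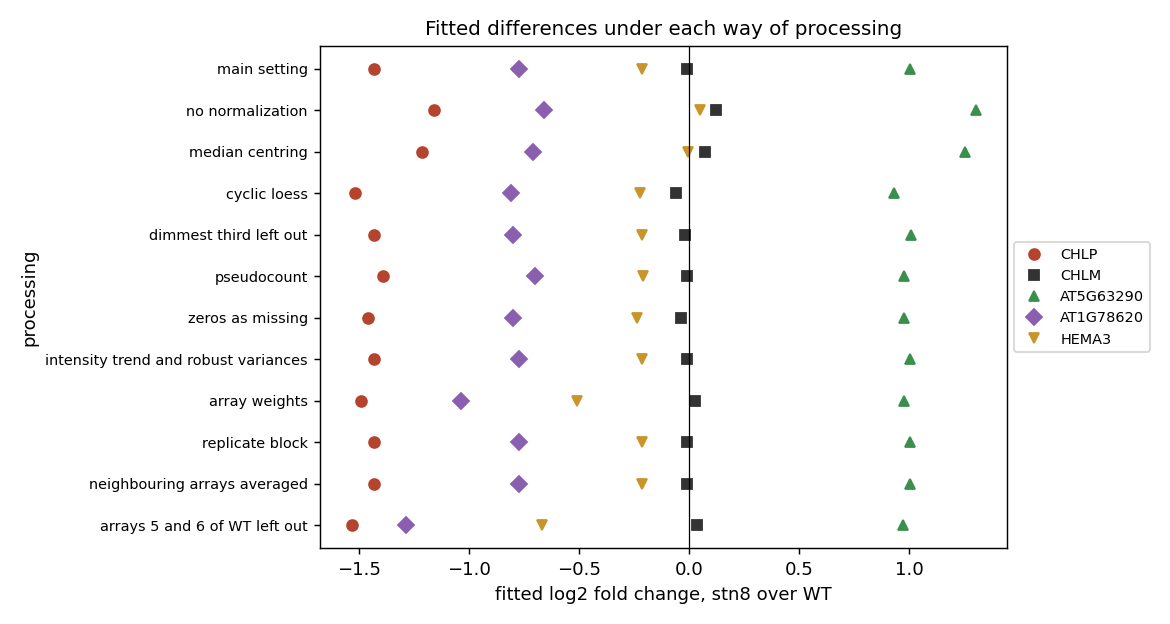
Fitted log2 fold change of stn8 over WT (horizontal axis) for *CHLP*, *CHLM*, AT5G63290, AT1G78620 and *HEMA3* under the main setting and the alternatives that do not leave out a single array (rows). *CHLP* lies between -1.54 and -1.16 and *CHLM* between -0.06 and 0.12. *Z-ISO* is not shown because its stn8 values are 0.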

How the data were processed

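The authors deposited 1 table of intensity values for 12 arrays, linear as read from the values and never below 0; their background correction, scaling, array design and scanner are not given in the sources at hand. Of 3439 rows, 2 held no value. The platform annotation names 1 gene for 692 probes (690 matched in the TAIR10.1 gene table) and several for 869; 1876 are unlisted. Groups came from the titles.

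A 0 was replaced by the lowest positive intensity on the same array, values were converted to log2 and quantile normalized, and stn8 was compared with WT in limma 3.58.1 (R 4.3.3; lmFit and eBayes, two-sided, Benjamini-Hochberg over 3437 probes, threshold 0.05). Means and SDs are of deposited intensities. The fit was run on simulated data with independent noise, no zeros and changes in few probes. The real arrays differ in all of these, so that run does not vouch for the p-values given here. The number of arrays limits the precision.

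Named genes were the 3 enzymes, listed genes with their own probe, and for each enzyme the 5 most correlated genes. Members and lists, including the limits for bright spots, were chosen with earlier results of these data known. Same-numbered arrays of the 2 groups deviated together from their group means (r from 0.17 to 0.333 in all 6 pairs, and from -0.284 to 0.286 for different numbers), which meets the limit of 0.1 set for pairing. The values printed are from the fit without the number as a block, and the blocked fit is an alternative. Alternatives covered normalization, dim probes, zeros, variance model, array weights, pairing and arrays left out. No reference sequence was used here. Figures used matplotlib 3.10.9.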

Additional observations from a re-analysis of the deposited data

Results flagged for a closer look

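Dixon's criterion at the 95% level was applied to 11 sets of 6 values, those of *CHLP*, *CHLM*, *HEMA3*, AT5G63290 and AT1G78620 in each genotype and of *Z-ISO* in the WT. It marked 0 arrays. The criterion looks for a single array and cannot mark a pair that lies together, such as WT arrays 5 and 6 of *HEMA3* (0.524 and 0.554) and of AT1G78620 (0.272 and 0.255).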

How the results depend on the processing

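All 23 alternatives were run for each result except *Z-ISO*, whose fold change has no value with stn8 at 0. The *CHLP* log2 fold change was -1.163 without normalization and -1.215 with median centring, and its other alternatives, the arrays left out singly among them (-1.495 to -1.378), moved it by less than 1 SD between arrays. That of *CHLM* was 0.123 without normalization and -0.049 to 0.039 with single arrays left out. The count of called probes lay between 1851, with the dimmest 33.3% of probes left out, and 2505, with array weights, against 2421. With the sample number as a replicate block it was 2477, and the block changed none of the calls among the 3 other listed genes (AT5G63290 adjusted p = 2.78e-06). Averaging neighbouring arrays, the smaller design, gave 2011, or 58.5% of all probes.

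Of the 3 other listed genes, 1 was called, beside 70.4% of all probes. The count was 2 without the dimmest 33.3% of probes (80.8% of the rest called), where AT1G78620 passed (-0.803), and 1 to 2 with single arrays left out. It was 3 with array weights (72.9% of all probes called), where AT1G78620 had -1.038 and *HEMA3* -0.51, and also 3 without WT arrays 5 and 6 (72.6% called), an alternative added after the data were seen. *HEMA3* had 0.048 without normalization. The causes were not tested. Each stn8 array listed 630 to 694 probes above 0 and below 0.156, the lowest WT value of *Z-ISO*. How a value came to be 0 is not stated, so the 0 of *Z-ISO* cannot be told apart from a signal too low to be listed at its spot.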
